A study of Rattus norvegicus with 2 samples.

Results

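Cxcl9, Cxcl10 and Cxcl11 are 3 of the 25399 genes counted in cardiac cells of neonatal rats, and were taken by their symbols (ENSRNOG00000022242, ENSRNOG00000022256 and ENSRNOG00000022298). The cells came from Sprague-Dawley pups aged 1 to 3 days, pooled over male and female animals, and a Percoll gradient had been used to enrich intrinsic cardiac adrenergic (ICA) cells, a catecholamine-making cell of the heart. One portion was kept for 2 h with saline (control) and the other for 2 h with 1 µg/mL of lipopolysaccharide (LPS), a cell wall component of Gram-negative bacteria, and each gave 1 single-cell library of the 10X Genomics kind. With 1 library per condition there is no replicate check and no test was made, and condition and handling of a library cannot be told apart. The preparation is a mixture in a dish, without blood flow or the leukocytes that circulate in it, and although the labels call the samples ICA cells, only cluster 3 carries that name in the authors' cell table.

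These small secreted proteins are the ligands of CXCR3, a receptor carried mainly by activated T cells and natural killer cells, and they draw such cells into inflamed tissue. All 3 genes respond to interferons, CXCL9 chiefly to interferon-γ. CXCL10 and CXCL11 also answer type I interferons, and CXCL10 answers NF-κB, the factor that LPS sets free through its receptor TLR4. In the heart these chemokines are known from myocarditis, transplant rejection and infarction.

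The genes lie close together on rat chromosome 14. The 250 bases before each start, from the RefSeq table of the GRCr8 build (plus strand, printed 5′ to 3′), are shown because they hold different sets of the patterns to which interferon and LPS signals lead. Capitals mark matches to 4 patterns, searched on both strands. These are GGG and TTCC with 3 or 2 bases between them (the form of NF-κB sites), GAAA and GAAA with 2 or 1 bases between them (the interferon-stimulated response element), TTCNNNGAA (STAT sites) and TGANTCA (AP-1 sites).
Cxcl9, chr14:16006916-16007165: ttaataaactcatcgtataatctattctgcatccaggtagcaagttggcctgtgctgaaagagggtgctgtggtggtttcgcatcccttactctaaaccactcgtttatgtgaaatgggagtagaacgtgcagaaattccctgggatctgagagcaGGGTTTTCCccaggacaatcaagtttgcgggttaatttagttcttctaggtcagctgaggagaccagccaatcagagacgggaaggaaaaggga
Cxcl10, chr14:15988816-15989065: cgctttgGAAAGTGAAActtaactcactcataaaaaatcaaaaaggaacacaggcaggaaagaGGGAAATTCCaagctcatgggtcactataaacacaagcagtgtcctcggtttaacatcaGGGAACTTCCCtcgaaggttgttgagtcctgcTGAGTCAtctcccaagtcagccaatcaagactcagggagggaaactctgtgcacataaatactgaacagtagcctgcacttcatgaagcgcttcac
Cxcl11, chr14:15973478-15973727: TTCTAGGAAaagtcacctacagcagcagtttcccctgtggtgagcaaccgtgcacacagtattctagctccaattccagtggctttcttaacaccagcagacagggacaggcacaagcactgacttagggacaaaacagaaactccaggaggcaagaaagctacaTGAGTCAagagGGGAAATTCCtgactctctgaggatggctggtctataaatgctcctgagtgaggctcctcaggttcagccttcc

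The NF-κB form was found in each of the 3 windows and in 8.36% of the 33469 promoter windows of the same length in the table. In Cxcl10 it occurred at GGGAAATTCC, which starts 187 bases before the gene, and at GGGAACTTCC with its overlapping reverse match, from 128 bases before it. Cxcl11 had the identical GGGAAATTCC 74 bases before its start, and Cxcl9 had GGGTTTTCC at 94 bases. The interferon-stimulated form was matched in Cxcl10, at GAAAGTGAAA 243 bases before the start, and in 6.10% of all windows. The AP-1 form TGAGTCA was matched in Cxcl10 and Cxcl11 and in 6.34% of windows, and the STAT form in Cxcl11 and in 7.67%. A match is a run of letters, not a bound site, and where a pattern was not matched only this window was searched.

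Levels are UMIs (unique molecular identifiers, 1 per captured mRNA molecule) summed over the cells of a cluster, as counts per 1e+06 UMIs of those cells (CPM), with 95% counting intervals. The saline cells numbered 11531, with 152624585 UMIs in all and 12479 in the median cell. The LPS cells numbered 12689, with 127580475 UMIs and 9432 in the median cell. Intervals cover counting error only, not the spread between cells, animals or preparations. They treat UMIs as independent, so where a few cells hold many of the UMIs, they are too narrow. The authors' 11 clusters hold 11529 and 12681 of these cells. Clusters 0, 1 and 7 are named Fibroblast, 3 ICA and Cardiomyocyte, 4 and 5 Endothelial, 6 Macrophages, and the other 4 have no name. By markers, cluster 2 is mural-like (Rgs5, Kcnj8 and Abcc9 among its 10 leading genes), 8 mesothelial-like (Upk1b, Msln) and 10 Schwann cell-like (Sox10, S100b). Cluster 9 is led by mitochondrial genes, with Myh6 and Mybpc3 among its leading genes, and stays unnamed. It had the highest fibroblast marker sums, 17343.5 CPM in saline and 14561 CPM in LPS. Its cardiomyocyte markers were at 16.1% and 17.5% of their cluster 3 level. Cluster 1 is led by cell division genes, and cluster 3 by cardiomyocyte genes (Trdn, Casq2, Smpx). Cluster 7 holds 104 saline and 144 LPS cells whose 9 fibroblast markers summed to 11763 and 11568 CPM, against 11692 and 10721 CPM in cluster 0, and its leading genes are Mx1, Ifit3, Cxcl10, Cmpk2 and Isg15. Cxcl10 thus took part in setting cluster 7 apart, and all clusters were drawn from all genes of these cells, so levels between clusters are descriptions. The libraries shared 194 cell barcodes, 1.68% of the saline and 1.53% of the LPS cells.

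Over all clustered cells, Cxcl10 was the member that differed most between the libraries. Its level was 5.35 CPM (817 UMIs) in saline and 118.8 CPM (15157 UMIs) in LPS, a ratio of 22.2 (20.7 to 23.8), and 23.4 (21.6 to 25.4) without cluster 7. Cxcl11 was at 4.10 CPM (625 UMIs) and 12.3 CPM (1564 UMIs), a ratio of 2.99 (2.73 to 3.29), which was 5.80 when cells with fewer than 500 genes or over 10% mitochondrial UMIs, among them most of cluster 3, were left out. Cxcl9 was at 2.99 CPM (457 UMIs) and 5.16 CPM (658 UMIs), a ratio of 1.72 (1.53 to 1.95). The median ratio of all 15148 genes with at least 10 UMIs was -0.16 on the log2 scale, against which the members' ratios can be read. In saline the 3 genes had comparable totals, and in LPS 87.2% of their UMIs were Cxcl10. With 0.5 UMI added, 187 of the 15148 genes (1.23%) were 4-fold or more higher in LPS, among them Cxcl10 as 1 of the 3 members, and 341 genes (2.25%), none of them a member, were 4-fold or more lower.

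**Figure D1:**
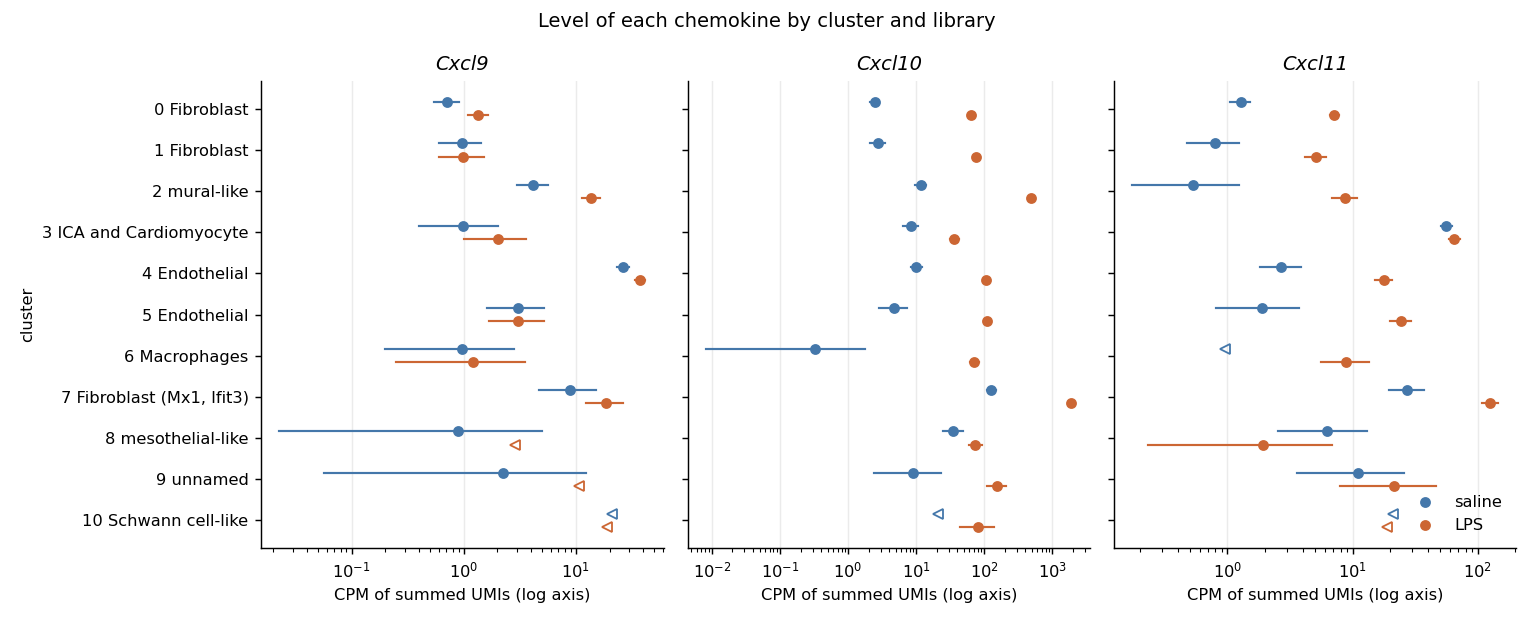
Level of Cxcl9, Cxcl10 and Cxcl11 in each cluster (rows) of the saline (blue) and LPS (orange) library, as CPM of summed UMIs on a log axis. Points are levels, lines 95% Poisson intervals and open triangles the limit that 0 UMIs allow. The highest levels are in cluster 4 for Cxcl9, in cluster 7 for Cxcl10, and for Cxcl11 in cluster 3 in saline and cluster 7 in LPS.

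Cxcl10 was higher in LPS in all 11 clusters, with an interval above 1 in each. In the mural-like cells of cluster 2 its level was 11.6 CPM (109 UMIs) in saline and 483 CPM (4053 UMIs) in LPS, a ratio of 41.5 (34.3 to 50.6). In the fibroblasts of cluster 0 it was 2.44 and 63.6 CPM, a ratio of 26.1 (22.8 to 29.9), and in the dividing fibroblasts of cluster 1 it was 2.75 and 76.3 CPM, a ratio of 27.8 (21.7 to 36.1). The Mx1- and Ifit3-rich fibroblasts of cluster 7 had the highest level in both libraries, 127 CPM (186 UMIs) and 1858 CPM (2825 UMIs), with a smaller ratio of 14.6 (12.6 to 17.0). Of all Cxcl10 UMIs of the LPS library, 31.0% were in cluster 0, 26.7% in cluster 2, 18.6% in cluster 7 and 10.1% in cluster 1.

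In the endothelial cells of cluster 4, Cxcl10 was at 10.1 CPM in saline and 108 CPM in LPS, a ratio of 10.7 (8.79 to 13.1). In those of cluster 5 it was at 4.71 and 108 CPM, a ratio of 22.9 (14.7 to 37.9). The summed LPS levels of both endothelial clusters could not be told apart (ratio 1.00, 0.898 to 1.12), while in saline cluster 4 was the higher. Fewer cells carried the level of cluster 5. There, the 45 of 443 LPS cells with the most held 87.4% of the Cxcl10 UMIs, and a single cell held 54 of 491. In cluster 4 the 83 of 823 cells with the most held 61.4%. Macrophages, the classic responders to LPS, had 1 Cxcl10 UMI in the saline library (0.321 CPM) and 177 in LPS (71.2 CPM), a ratio of 222 with a wide interval of 39.3 to 8808. Their LPS level was near that of cluster 0, 112% of it, while the fibroblast markers in macrophages summed to 27.8% of their cluster 0 level. The part of carried-over RNA in the macrophage level was not tested.

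Cluster 3, the cardiomyocytes and ICA cells, had the lowest Cxcl10 level of all clusters in LPS, 36.5 CPM (200 UMIs) against 8.33 CPM (59 UMIs) in saline, a ratio of 4.38 (3.26 to 5.96). Its LPS level was 57.4% of that in cluster 0, and fibroblast markers in cluster 3 stood at 32.3% of theirs. Cluster 0 itself lay below the LPS level over all clustered cells, 118.8 CPM. Clusters 2 and 7 held 26.7% and 18.6% of the Cxcl10 UMIs of that library. The part of carried-over RNA in the level and ratio of cluster 3 was not tested. The mesothelial-like cluster 8 had 35.1 CPM (39 UMIs) in saline and 74.3 CPM (78 UMIs) in LPS, a ratio of 2.12 (1.42 to 3.20), but 1 saline cell held 24 of the 39 UMIs. Leaving out the top cell of each library gave a ratio of 4.42. Cluster 9 had 4 and 43 UMIs (8.89 and 154 CPM). The 26 Schwann cell-like LPS cells had 13 UMIs (81.5 CPM) against none in 16 saline cells. That is 3.91-fold higher counting 3 UMIs for the 0, with an exact lower limit of 2.75. In LPS, 7 of the 11 clusters lay between 63.6 and 108 CPM, with 7, 2 and 9 above them and 3 below. From cluster 5 down to cluster 0, no neighbours in this order differed beyond counting error. The ends of the order did differ. The interval of cluster 4 (101.2 to 114.4 CPM) lay above that of cluster 0 (61.8 to 65.5 CPM). Likewise, the intervals of clusters 4 and 5 lay above that of cluster 1.

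**Figure D2:**
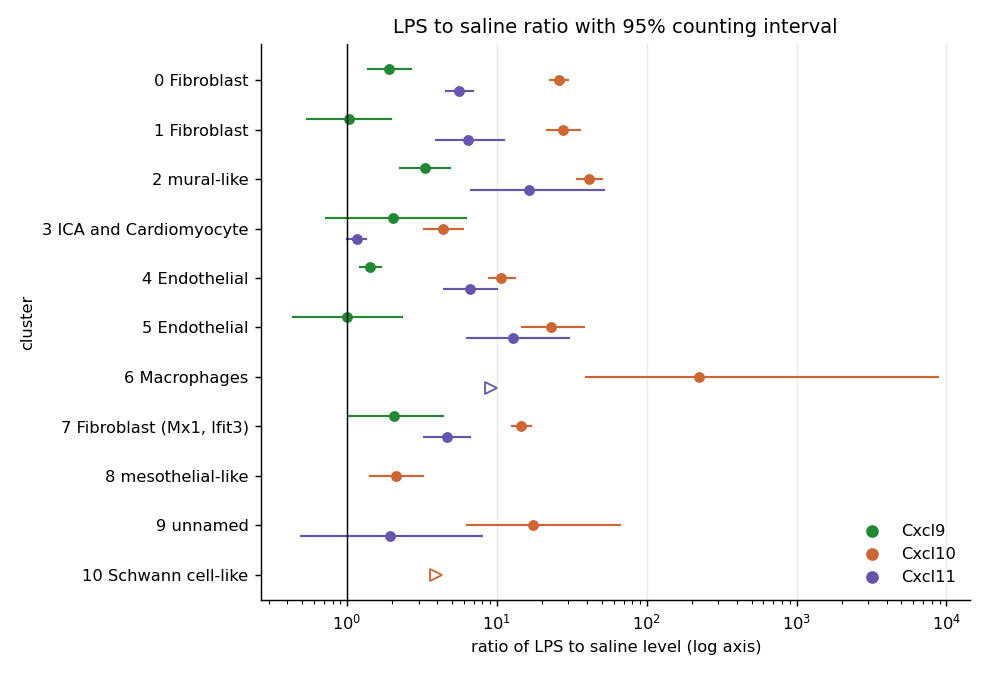
Ratio of the LPS to the saline level (log axis) with its exact 95% counting interval, for each cluster and gene with at least 10 UMIs over both libraries and more than 3 in one. Open triangles are ratios counting 3 UMIs for saline where it had 0, and the vertical line marks equal levels. Cxcl10 lies right of the line in all 11 clusters and furthest right in macrophages, while Cxcl11 in cluster 3 and Cxcl9 in clusters 1 and 5 lie close to it.

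The share of cells with a Cxcl10 UMI was taken with every cell reduced at random to 3000 UMIs (79 shallower LPS cells were left out). In LPS it was 89.6% (83.4 to 94.1) of the 144 cells of cluster 7, 44.0% of cluster 2, 20.1% of cluster 4, 16.5% of cluster 1, 12.9% of cluster 0, 13.4% of macrophages, 12.4% of cluster 5 and 8.86% of cluster 3. The matching saline shares were 19.2%, 2.44%, 3.04%, 0.541%, 0.682%, 0.356%, 1.14% and 2.99%. In LPS clusters 8, 9 and 10 had 13.6%, 20.4% and 19.2%, from 11, 11 and 5 cells with a UMI. Like the level, the LPS share was highest in clusters 7 and 2. It differed between clusters 4 (20.1%, 17.4 to 23.1) and 5 (12.4%, 9.44 to 15.8), whose levels were alike. Without thinning, the LPS shares were 97.9% in cluster 7, 54.8% in cluster 2 and 28.3% in cluster 0. Free RNA in the droplets gives some cells a UMI, and no cell type here is known to lack Cxcl10, so its background share could not be set.

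The message was unevenly spread over cells. The highest count of any cell was 104 Cxcl10 UMIs, in an LPS cell of cluster 7, where 93 of 144 cells (64.6%) had 10 or more and the median was 11. In cluster 2 the maximum was 92 UMIs and 110 of 1421 LPS cells (7.74%) had 10 or more, and in cluster 0 60 of 7030 (0.853%). Over the whole LPS library, 319 of 12681 cells had 10 or more and the 1269 cells with the most Cxcl10 UMIs held 75.5% of them. In saline 8 cells reached 10 UMIs, and 7 of them were in cluster 7.

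Cxcl11 showed a different map, with its saline level concentrated in cluster 3. The cardiomyocyte and ICA cell cluster held 396 of the 625 saline UMIs (63.4%) at 55.9 CPM (50.6 to 61.7), against 27.4 CPM in cluster 7, which came next, and 1.27 CPM in cluster 0. With LPS it was 65.1 CPM in cluster 3, a ratio of 1.16 (1.01 to 1.35), and its interval includes 1 when mitochondrial genes are left out of the total (1.15, 0.994 to 1.33) or the 8% of cells with the most UMIs are (1.15, 0.992 to 1.33). The thinned share of cluster 3 cells with a Cxcl11 UMI was 13.8% (11.5 to 16.3) in saline and 15.7% (13.4 to 18.2) in LPS, with overlapping intervals. The same thinned share in the fibroblasts of cluster 0 was 0.439% and 1.85%. Without thinning it was 1.67% and 5.53% in cluster 0, and 28.6% and 23.9% in cluster 3, whose cells are shallower (a median of 7526 UMIs against 12968 in saline). Cells of cluster 3 are rich in mitochondrial UMIs (median 17.9% and 17.3%), and a limit of 10% on these keeps 55 saline and 85 LPS cells, with a ratio of 1.59.

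Outside cluster 3, Cxcl11 was higher in LPS in clusters 0, 1, 2, 4, 5, 6 and 7, with intervals above 1. The ratio was 5.62 (4.59 to 6.94) in cluster 0, from 1.27 to 7.14 CPM, and 6.40 (3.90 to 11.1) in cluster 1. In cluster 2, 5 saline UMIs stood against 73 in LPS (0.534 and 8.69 CPM), a ratio of 16.3 (6.67 to 51.6). In the endothelial cells of cluster 4 the levels were 2.70 and 17.8 CPM, a ratio of 6.59 (4.45 to 10.1). Cluster 5 had 8 and 110 UMIs, a ratio of 12.8 (6.29 to 30.5), but a single LPS cell held 48 of the 110, together with 24 Cxcl10 UMIs, and the LPS level without it was 13.6 CPM in place of 24.2. Macrophages had 0 and 22 UMIs, 9.19-fold higher counting 3 for the 0, with an exact lower limit of 6.86. Clusters 8 and 9 had 7 or fewer UMIs in either library, with intervals that include 1, and cluster 10 had none.

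In cluster 7, Cxcl11 was at 27.4 CPM (40 UMIs) in saline and 126 CPM (192 UMIs) in LPS, the highest level of the gene anywhere, a ratio of 4.61 (3.26 to 6.65). A single saline cell of 38586 UMIs held 21 of the 40, along with 10 of the 13 Cxcl9 UMIs and 21 of the Cxcl10 UMIs of the saline cells of cluster 7. Without the top cell of each library the ratio was 8.57, and the saline level was 13.4 CPM. The share of LPS cells with a Cxcl11 UMI after thinning was 19.4% in cluster 7, so most of its cells had none while nearly all had Cxcl10.

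The low Cxcl11 levels of the stromal clusters were set beside the trace of cardiomyocyte markers in the same cells. In saline cells the 8 cardiomyocyte markers summed to 2.08% of their cluster 3 level in cluster 1, 3.33% in cluster 2 and 2.00% in cluster 0, and Cxcl11 stood at 1.41%, 0.954% and 2.27% of its own cluster 3 level. In saline Cxcl11 was thus below the markers in clusters 1 and 2 and close to them in cluster 0. In LPS the markers stood at 1.70%, 2.93% and 1.64%, and Cxcl11, above them in each, at 7.78%, 13.3% and 10.97%. The part of carried-over RNA in these levels was not tested.

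**Figure D3:**
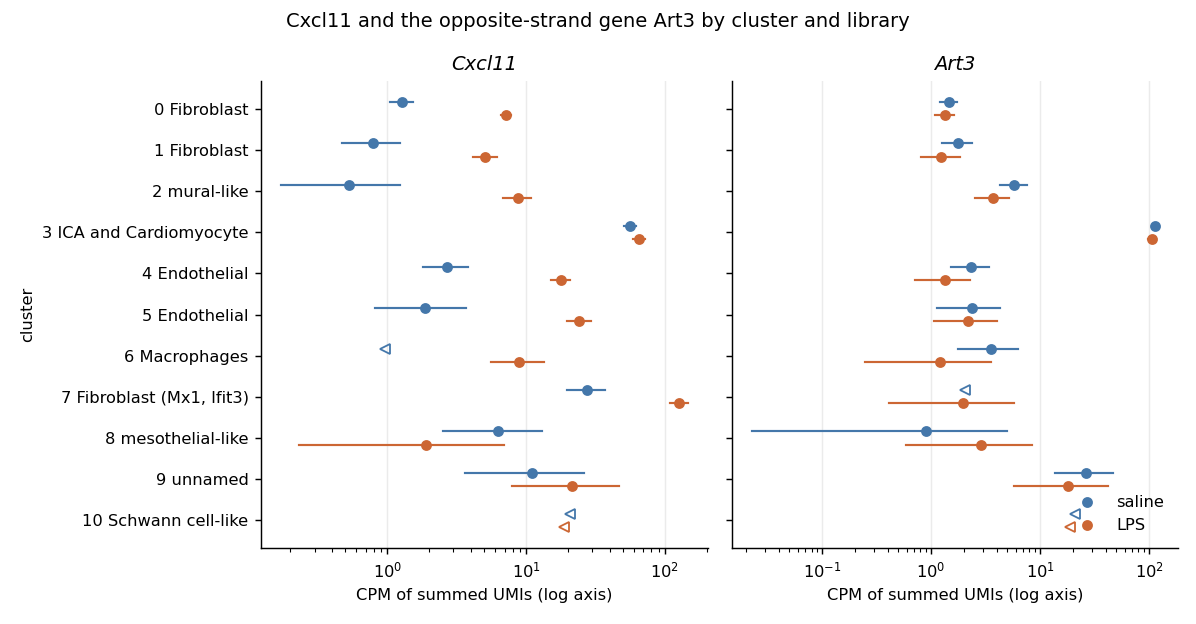
Level of Cxcl11 and of Art3 in each cluster (rows) of the saline (blue) and LPS (orange) library, as CPM on a log axis. Points are levels, lines 95% Poisson intervals and open triangles the limit that 0 UMIs allow. Both genes are highest in cluster 3 in saline, and in clusters 0 to 6 the Art3 level is not higher in LPS.

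In the GRCr8 annotation, Cxcl10 and Cxcl11 lie inside Art3 (ENSRNOG00000002256), a gene for an ADP-ribosyltransferase-like protein on the opposite strand, and Cxcl9 lies just outside it. The sources used here do not state whether reads were counted by strand, and without strand, reads of overlapping genes cannot be told apart. Art3, examined after its values were seen, was at 113 CPM in saline and 106 CPM in LPS in cluster 3, a ratio of 0.935 (0.839 to 1.04), and at 1.46 and 1.34 CPM in cluster 0. Cxcl11 therefore had 0.494 (0.437 to 0.558) UMIs per Art3 UMI in cluster 3 in saline and 0.616 (0.538 to 0.703) in LPS. The figure was 0.871 and 5.32 in cluster 0, and 192 against 3 UMIs in LPS cells of cluster 7. Within cluster 3, thinned cells with a Cxcl11 UMI had an Art3 UMI in 27.8% of cases and the other cells in 30.1% in saline, and 34.5% and 26.6% in LPS, with overlapping intervals. Whether Art3 transcripts contribute to the Cxcl11 counts of cluster 3 was not tested.

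Cxcl9 was mostly endothelial. Cluster 4, led by the capillary genes Gpihbp1, Apln and Fabp4, held 64.1% of the saline and 55.8% of the LPS Cxcl9 UMIs, at 26.3 CPM (293 UMIs, 23.4 to 29.5) and 37.7 CPM (367 UMIs, 33.9 to 41.8). The ratio of 1.43 (1.22 to 1.67) was far below those of Cxcl10 and Cxcl11 in the same cells. The share of thinned cells with a Cxcl9 UMI was 7.75% (5.90 to 9.94) and 8.04% (6.25 to 10.2), and 22.5% and 24.3% without thinning. The other endothelial cells, cluster 5 with its venular gene Selp, had 13 and 14 UMIs (3.06 and 3.08 CPM), a ratio of 1.01 (0.438 to 2.32).

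Outside the endothelium, Cxcl9 was higher in LPS in cluster 2, with 4.16 and 13.7 CPM and a ratio of 3.29 (2.27 to 4.86). In cluster 7 it was 8.91 and 18.4 CPM, a ratio of 2.07 (1.04 to 4.35). Without the top cell of each library that ratio is 6.26, but only 3 saline UMIs remain. In cluster 0 Cxcl9 was at 0.707 and 1.36 CPM, a ratio of 1.92 (1.39 to 2.67). That is 2.69% and 3.60% of the cluster 4 level, beside 4.59% and 3.57% for the 6 endothelial markers, so that Cxcl9 in cluster 0 was below the markers in saline and level with them in LPS. The part of carried-over RNA in both values, and so in the ratio, was not tested. In cluster 2 the markers stood at 7.07% and 5.60% and Cxcl9 at 15.8% and 36.3%. Macrophages had 3 Cxcl9 UMIs in each library.

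**Figure D4:**
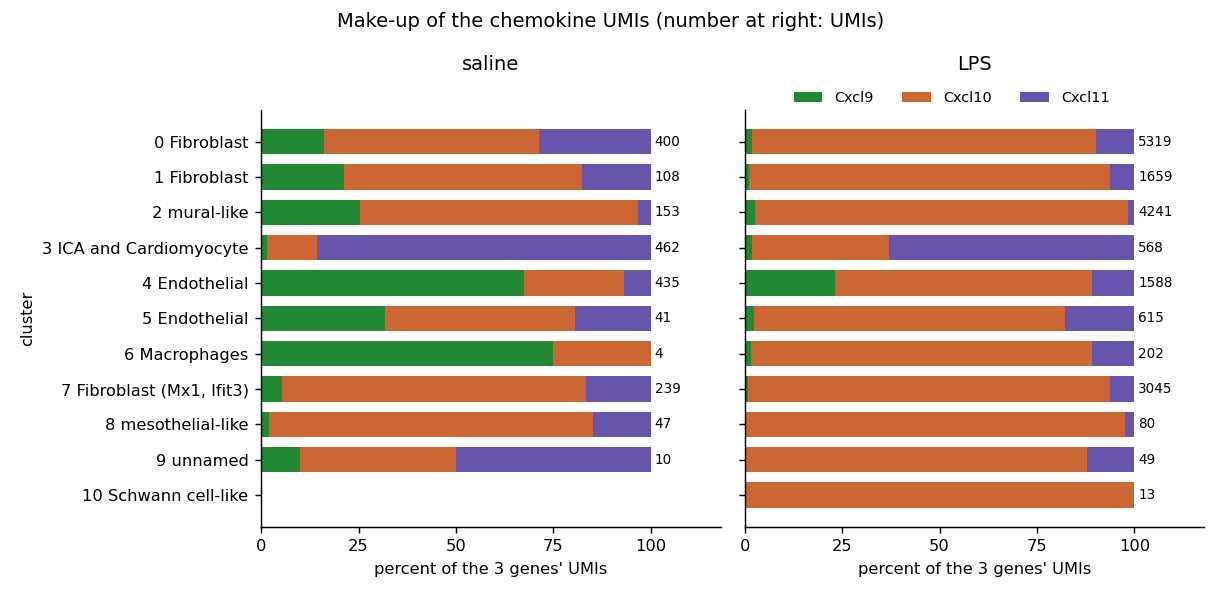
Share of the 3 genes' summed UMIs that were Cxcl9 (green), Cxcl10 (orange) and Cxcl11 (purple) in each cluster (rows), for saline (left) and LPS (right), with the number of UMIs beside each bar. In LPS Cxcl10 makes up most of every bar except that of cluster 3, where Cxcl11 is 62.9%.

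The make-up of the 3 genes' UMIs differed between clusters by more than counting error. In saline, Cxcl9 made up 67.4% in cluster 4 and Cxcl11 85.7% in cluster 3, while Cxcl10 made up 55.2% in cluster 0, 71.2% in cluster 2 and 77.8% in cluster 7. In LPS, Cxcl10 made up 95.6% in cluster 2, 92.8% in cluster 7, 88.2% in cluster 0, 87.6% in macrophages and 66.0% in cluster 4, and 35.2% in cluster 3. Per Cxcl10 UMI, the LPS cells of cluster 3 had 1.79 (1.497 to 2.13) Cxcl11 UMIs, those of cluster 0 0.112 (0.102 to 0.123) and those of cluster 2 0.0180 (0.0141 to 0.0227). Cxcl9 UMIs per Cxcl10 UMI were 0.350 (0.310 to 0.395) in LPS cells of cluster 4 and 0.0284 (0.0234 to 0.0342) in those of cluster 2.

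Within several clusters, Cxcl10 was found more often in LPS cells that had Cxcl11 or Cxcl9 than in the others. After thinning, 31.5% (23.7 to 40.3) of the cluster 0 cells with Cxcl11 also had Cxcl10, against 12.5% (11.8 to 13.4) of the others. In cluster 2 this was 75.9% against 43.4%, in cluster 4 38.9% against 19.2% and in cluster 5, with 8 Cxcl11 cells, 87.5% against 10.98%. In LPS cells of cluster 3 the shares were close, at 9.66% (5.38 to 15.7) against 8.71% (6.82 to 10.9). In its saline cells they were 6.96% (3.05 to 13.2) against 2.36% (1.38 to 3.75), with overlapping intervals. In LPS the intervals also overlapped in cluster 1 (9.77 to 46.7 and 14.5 to 18.4), in cluster 7 and in macrophages. Cluster 3 was thus not set apart by this comparison. Cells with Cxcl9 had Cxcl10 in 32.8% (21.6 to 45.7) of cases in cluster 4 and 63.4% (46.9 to 77.9) in cluster 2, against 19.0% and 43.5% of the other cells.

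The LPS cells with a thinned Cxcl10 UMI were set beside those without one in the same cluster, to see what else they held. Ranked were genes with at least 50 UMIs in the cells with Cxcl10. These were 4409 genes in cluster 0, 1401 in cluster 4 and 306 in macrophages. Such a filter favours genes that are high in those cells, so the lists are descriptions. In cluster 0 (906 and 6118 cells) the 10 genes with the highest ratio were Ifit3, RGD1309362, Isg15, Ccl19, Usp18, Oas1a, Irgm, Mx2, Oasl2 and Irf7. Ifit3 and the Oas genes act in antiviral RNA binding and sensing, Isg15 is a ubiquitin-like modifier that Usp18 removes, and Irf7 is an interferon regulatory factor. Ifit3 was 3.69 (2.92 to 4.65) and Isg15 2.83 (2.59 to 3.08) times as high in cells with Cxcl10, with 43.0 against 11.7 CPM for Ifit3 and 280 against 99.2 CPM for Isg15. In the endothelial cells of cluster 4 (160 and 636 cells) the list was Ifit3 (3.83), Mx2 (3.35), Isg15 (2.92), Mmp9, Oasl2, Apol9a, Rsad2, Ifi44, Myadm and Rtp4. In macrophages (39 and 251 cells) it was Gbp5 (3.30, 2.36 to 4.59), the chemokine gene Ccl5 (3.25), Isg15 (2.25), Il1rn, Mgp, Ccl12, Anxa1, Lyz2, Col3a1 and Bgn.

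Summed gene lists were compared in the same cells. Abundant genes weigh most in such sums, so values of different lists do not rank the responses. Single genes can differ from their list, as Ifit3 (3.69) and Isg15 (2.83) did from the type I value in cluster 0. In cluster 0 the 26 type I interferon response genes were 1.19 (1.17 to 1.22) times as high in cells with Cxcl10, the interferon-γ-linked genes 1.39 (1.28 to 1.51), and the NF-κB factors and feedback genes 1.03 (0.985 to 1.07). In cluster 4 the values were 1.43, 1.43 and 1.01, and in macrophages 1.59, 1.84 and 1.11. In cluster 2, added after the values were seen, the NF-κB list was 1.16 (1.09 to 1.22) beside 1.31 and 1.61, and Ifit3 alone was 5.86 (3.81 to 9.34). In cluster 5, also added, the values were 1.76, 3.26 and 1.03. Ifitm3 alone gave 427 of the 1218 type I list UMIs in the Cxcl10 cells of cluster 5. The mural markers were 2.38 (1.87 to 3.02) times as high in the Cxcl10 cells of cluster 4, 2.32 (1.13 to 4.49) in those of macrophages and 1.83 (1.09 to 2.95) in those of cluster 5, and Mmp9, in the cluster 4 list, is also a leading gene of the mural-like cluster 2. The collagen gene Col3a1, Mgp and Bgn, which stromal cells express, stood in the macrophage list. The median depth of the Cxcl10 cells of cluster 4 was 12627 UMIs against 9661 in the others. The part of mixed droplets in these values was not tested.

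**Figure D5:**
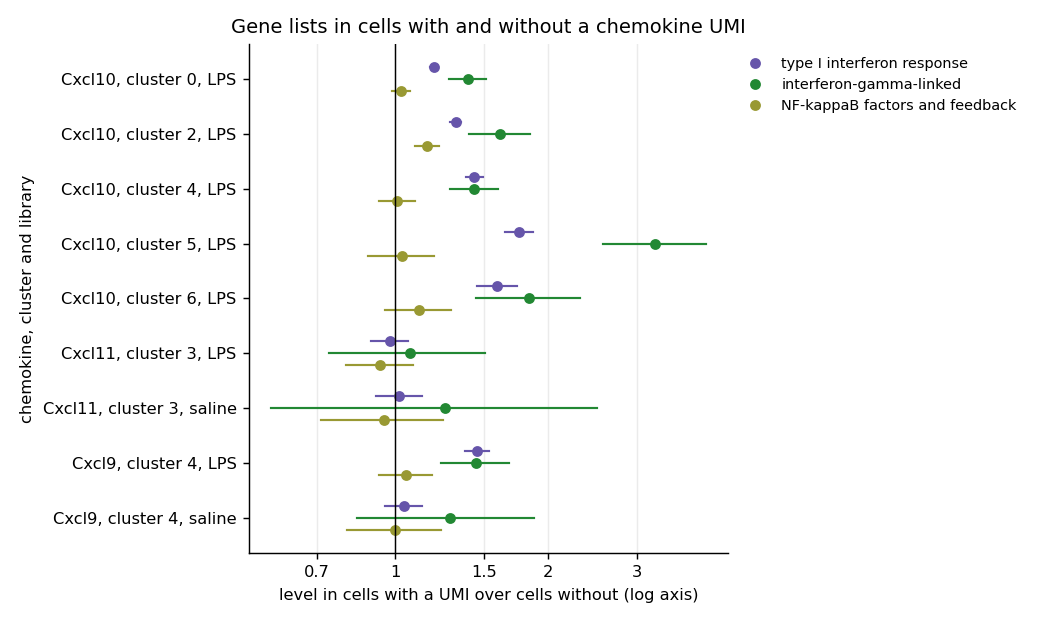
Summed level of 3 gene lists in thinned cells with a UMI of the named chemokine over cells without, for each cluster and library (rows), on a log axis with exact 95% counting intervals. The interferon lists lie above 1 for Cxcl10 cells in the 5 clusters shown and for Cxcl9 in LPS cells of cluster 4, and their intervals include 1 for Cxcl11 in cluster 3.

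As a sum, the type I interferon list showed no such excess in the Cxcl11 cells of cluster 3. This list was 1.02 (0.914 to 1.13) times as high in saline and 0.974 (0.896 to 1.06) in LPS. The interferon-γ-linked list was at 1.25 (0.567 to 2.50) and 1.07 (0.740 to 1.503). Abundant genes weigh most in these sums, which do not speak for single genes. Cxcl10 cells of cluster 3 and Cxcl11 cells of other clusters were not compared, so gene and cluster cannot be told apart. Both interferon-γ-linked intervals also hold the 1.39 and 1.43 of the Cxcl10 cells in clusters 0 and 4, so they cannot tell such an excess from none. In LPS the leading genes of these cells, among 1087 with at least 50 UMIs in them, began with Reg3b (2.33, 1.81 to 2.97) and Ssbp4. No gene of the type I list was among the first 10 in either library. The whole list had 676 UMIs in these cells in LPS and 407 in saline. Its genes with fewer than 50 could not enter the ranking, so their absence shows nothing about them. The interferon-γ-linked list had 40 UMIs in these cells in LPS and 10 in saline, so none of its genes could enter the ranking. In these LPS cells the endothelial markers were 1.499 (1.12 to 1.99), the fibroblast markers 0.885 (0.829 to 0.945) and the cardiomyocyte markers 0.9302 (0.896 to 0.965) times as high as in the other cells. The Cxcl9 cells of cluster 4 had an excess in LPS, with 1.45 (1.37 to 1.53) for the type I and 1.44 (1.23 to 1.68) for the interferon-γ-linked list. Isg15 led the 598 genes ranked by the same filter, at 2.199. In the same LPS cells the endothelial markers were 1.15 (1.03 to 1.28), the fibroblast markers 0.832 (0.740 to 0.933) and the mesothelial markers 2.86 (1.21 to 6.05) times as high as in the other cells, and their part in the excess was not tested. In saline the same values were 1.04 (0.952 to 1.13) and 1.28 (0.841 to 1.88). These cells of clusters 3 and 4 were also examined after values were seen.

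The pathway around the members was read from gene lists, by genes with a ratio of 4 or more among those with at least 10 UMIs in a cluster. In cluster 0, 190 of 14278 tested genes (1.33%) reached it, and of the members Cxcl10 and Cxcl11 did. The background was 1.28% in cluster 1, 1.10% in cluster 2, 0.908% in cluster 4, 1.58% in cluster 5 and 1.46% in cluster 7, each with Cxcl10 and Cxcl11 past the fold and Cxcl9 not. In macrophages (1.74%) both testable members passed, Cxcl10 and Cxcl11. Cxcl10 alone passed in cluster 3 (0.853%), cluster 9 (1.33%) and cluster 10 (2.07%), and in cluster 8 (0.778%) the single testable member, Cxcl10, did not. The median log2 ratio of all tested genes lay between -0.36, in macrophages, and 0.01, in cluster 10.

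Transcripts of the interferons listed for this pathway were almost undetected. Of the 10 listed interferon genes found in the gene table (Ifnb1, Ifna2, Ifna4, Ifna5, Ifna11, Ifnk, Ifne, Ifng, Ifnl1 and Ifnl3), 9 had 0 UMIs in both libraries. Ifne had 2 in saline and 0 in LPS. With 0 UMIs counted, levels of up to 0.0197 CPM in saline and 0.0235 CPM in LPS remain possible over a whole library. Within a single cluster the limit is higher, for example 1.21 CPM in LPS macrophages and 1.97 CPM in LPS cells of cluster 7. Markers of T and NK cells, the makers of interferon-γ, reached at most 2.22 CPM summed over 7 genes in any cluster, a value from 1 UMI in saline cells of cluster 9. Saline cells of cluster 4 came next at 2.16 CPM, from 24 UMIs, 22 of them Nkg7. In saline cells of cluster 0, 26 of 31 such UMIs were Cd8a. Of the receptors and kinases, Jak2, which signals for the interferon-γ receptor, passed 4-fold in clusters 0, 1, 2, 3, 4, 5, 7 and 9 and over all cells, with 19.5 CPM in saline and 170.5 CPM in LPS, a ratio of 8.74 (8.41 to 9.09). Ifngr1 was at 48.5 and 122 CPM (2.52, 2.45 to 2.59), Ifngr2 at 27.8 and 71.6 CPM (2.57, 2.48 to 2.67) and Jak1 at 22.4 and 26.0 CPM (1.16, 1.11 to 1.22).

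Of the 8 STAT and IRF factors tested, none passed 4-fold over all cells, which 1.23% of all tested genes did. The list median was 0.87 on the log2 scale. Irf1, which acts downstream of both interferon-γ and NF-κB, was at 10.7 CPM in saline and 39.3 CPM in LPS, a ratio of 3.68 (3.48 to 3.90), and at 4.93 (3.95 to 6.21) in cluster 2. Irf7 was at 8.50 and 15.6 CPM (1.84, 1.72 to 1.98), and in macrophages at 26.0 and 22.9 CPM with an interval that includes 1. Stat2 was at 18.1 and 32.8 CPM and Irf9 at 6.55 and 10.6 CPM, the partners of the complex that type I interferon activates. By cluster, Irf8 was 4-fold or more higher in LPS in clusters 0, 1, 2, 4 and 7. In macrophages it was lower, with 43 UMIs in saline and 1 in LPS. Irf1 passed 4-fold in clusters 1, 2 and 9, and Irf5 in clusters 5 and 7.

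The type I interferon response list had 8 of 26 tested genes higher by 4-fold over all cells and none lower. The shares of all tested genes were 1.23% and 2.25%. The list median was 1.79 on the log2 scale against -0.16 for all genes. Bst2 was at 0.716 of its saline level. The 8 were Ifit1, Ifit3, Isg15, Mx1, Oasl, Usp18, Rtp4 and Zbp1, the last from 1 and 9 UMIs. Isg15 was at 28.5 and 184 CPM (6.48, 6.27 to 6.69) and Ifit3 at 4.10 and 27.5 CPM (6.72, 6.17 to 7.32). The membrane restriction factor Ifitm3 (1.42, 1.42 to 1.43) and Ifi27 (1.17, 1.16 to 1.17), the most abundant of the list, differed little. In cluster 7, where these genes define the cluster, Isg15 was already at 530.2 CPM in saline and at 1692 CPM in LPS, and in cluster 2 at 45.5 and 283 CPM.

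The interferon-γ-linked list had 4 of 10 tested genes higher (Gbp2, Gbp4, Gbp5 and Nos2) and none lower, against 1.23% and 2.25% of all genes. Its median was 1.53. Gbp5, a guanylate-binding protein, was at 2.18 and 43.9 CPM (20.1, 18.0 to 22.5), and at 1.61 and 159 CPM in macrophages, from 5 saline UMIs. Gbp2 was at 8.79 and 66.5 CPM (7.57, 7.14 to 8.02). Tap1, which loads peptide for class I antigen presentation, was at 10.8 and 38.4 CPM (3.54, 3.35 to 3.75), and Psmb9 of the immunoproteasome at 33.6 and 63.0 CPM (1.88, 1.81 to 1.94).

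Of the 11 NF-κB factors and feedback genes, 4 were higher by 4-fold over all cells (Nfkb2, Nfkbia, Nfkbie and Tnfaip3) and none lower. Among all tested genes, 1.23% were higher and 2.25% lower. The list median was 1.92. Nfkbia, the inhibitor that NF-κB itself induces, was at 74.6 and 592 CPM (7.93, 7.78 to 8.09) and Nfkb1 at 28.2 and 106 CPM (3.77, 3.65 to 3.91). Rela was at 36.1 and 73.0 CPM (2.02, 1.96 to 2.09) and Nfkbib at 28.6 and 85.0 CPM (2.97, 2.86 to 3.07). In cluster 3, where the Cxcl10 ratio was 4.38, Nfkbia was at 53.5 and 247 CPM (4.62, 4.12 to 5.19). In cluster 0 Nfkbia was at 57.4 and 562 CPM (9.79, 9.51 to 10.1). The ratios of the genes did not run together in all clusters. Nfkbia did not pass 4-fold in cluster 4, with a Cxcl10 ratio of 10.7, and passed it in cluster 8, with 2.12. The value of cluster 8 leans on 1 saline cell, which held 24 of its 39 saline Cxcl10 UMIs. Without the top cell of each library, Cxcl10 passed 4-fold there too.

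None of the 7 genes for LPS sensing and its TRIF arm passed 4-fold over all cells, which 1.23% of all tested genes did. Cd14, the co-receptor, was at 533 and 1536 CPM in macrophages (2.88, 2.72 to 3.05) and at 12.2 and 9.56 CPM in cluster 0. Tbk1 was at 13.4 and 15.2 CPM (1.14, 1.07 to 1.21), Ikbke at 4.96 and 9.02 CPM (1.82, 1.66 to 2.00) and Lbp at 15.7 and 22.2 CPM (1.42, 1.34 to 1.495). Tlr4, the receptor itself, had 30 and 4 UMIs in macrophages.

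Of the receptors, Cxcr3 was close to undetected and Ackr3 was measurable in both libraries. Cxcr3 had 16 UMIs in the saline library, 12 of them in cluster 0, and 1 in LPS, a ratio of 0.0748 (0.00178 to 0.481). Ackr3, a scavenger receptor that binds CXCL11, was at 13.0 and 10.6 CPM over all cells (0.810, 0.755 to 0.868), and highest in the mesothelial-like cluster 8, at 63.9 and 54.3 CPM. Dpp4, the protease that trims these chemokines, had 31 and 24 UMIs. Pf4, another CXCR3-binding chemokine, was a macrophage gene, at 2999 and 3601 CPM in cluster 6 (1.201, 1.17 to 1.24).

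Across the 22 levels given by 11 clusters and the libraries, the genes most like each member were ranked by Pearson's r of log2(CPM + 1) among 9896 genes with at least 500 UMIs. These levels share libraries and depth, and the r are descriptions. For Cxcl10 they were Isg15 (r = 0.90), Ube2l6, the enzyme that attaches ISG15 (0.84), March3 (0.84), Cxcl6 (0.83), Angptl4 (0.81), Irf1 (0.81), Gbp2 (0.81), Cyp7b1 (0.81), Ifi35 (0.80) and Mx1 (0.79). For Cxcl11 they were Parp9 (0.74) and its partner Dtx3l (0.74), Cmtr1, Bfar, Trim5, Taf2, Eif2ak2, Usp18, Trip12 and Trafd1 (0.70). For Cxcl9 they were Ktn1 (0.87), Apod (0.86), Casp4 (0.80), Vps28, C1qtnf9, Ldlrad4, Lgals9, Lxn, Cfap45 and Naxd (0.77). The members were less like each other, with r of 0.64 between Cxcl10 and Cxcl11, 0.39 between Cxcl9 and Cxcl10 and 0.39 between Cxcl9 and Cxcl11, and r between Cxcl11 and Art3 was 0.48.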

How the data were processed

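The authors deposited raw UMI counts per gene and cell, made with Cell Ranger 2.2.0, and a cell table with 11 clusters made with Seurat 2.3.4 (aligned by canonical correlation, resolution 0.5), versions per the submitters' processing notes. Genome build, annotation and strand setting are not given in the sources used here. Cells of a cluster were taken as deposited and no doublet caller was run. UMIs were summed per cluster and library with Python 3.11.15, pandas 2.3.3, numpy 2.4.6 and scipy 1.17.1. Levels carry 95% Poisson intervals, shares exact Clopper-Pearson intervals and ratios exact conditional binomial intervals, and a count of 0 was bounded by 3 UMIs. With 1 library per condition the precision across preparations is unknown. Thinning, intervals and ratios were tested on simulated data, the intervals and ratios on Poisson counts without clumping of UMIs in cells.

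Named were the members, the 4 genes of each pathway list with the highest level in the LPS cells of the cluster highest in Cxcl10, the interferon ligands, Cxcr3, Ackr3, Dpp4, Irf1 and Irf7, the 10 genes most like each member, the 10 leading genes of cells with a Cxcl10 UMI in clusters 0, 4 and 6, and cluster markers. Other genes named were chosen after their values were seen, and some genes under this rule are not reported here. The members and lists were chosen with earlier results of these data known. Alternatives covered filters on cells, likely doublets, barcodes found in both libraries, single cells of high count, the denominator, thinning depth, fold, minimum UMIs and the CPM added before taking logarithms.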

Additional observations from a re-analysis of the deposited data

How the results depend on the processing

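No paired analysis was possible because only 1 library stands for saline and 1 for LPS. No ratio whose interval excluded 1 turned its direction among 193 recomputed ratios, and 180 stayed within the counting interval of the reported value. Averaging the cells' own CPM gave 12.5 for Cxcl10 in cluster 7 (14.6 as reported), 7.66 for Cxcl11 in cluster 7 (4.61) and 2.49 for Cxcl11 over all cells (2.99). Leaving out cells with fewer than 500 genes or over 10% mitochondrial UMIs gave 1.59 for Cxcl11 in cluster 3 (1.16) and 5.80 over all cells, since few cells of cluster 3 remain. Cxcl11 in cluster 7 was 9.97 without the 8% of cells with the most UMIs and 8.57 without its top cell. A fold of 2 in place of 4 gave 385 genes in cluster 2 in place of 127, with 16 type I interferon genes in place of 7 and 9 NF-κB genes in place of 5. With 10 CPM added, 6 of the 10 genes most like Cxcl9 and 3 of those most like Cxcl10 were among the first 10 again. Thinning to 5000 UMIs gave 1.31 for the type I list in Cxcl10 cells of cluster 4 (1.43) and 1.44 in macrophages (1.59). The causes of these shifts were not tested. Of 42 shares of cells with a UMI, 37 moved with the thinning depth. Levels from fewer than 10 UMIs are limited by depth.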
